A study of Mus musculus with 4 samples.

Results

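Pdxp and Pdxk encode the phosphatase and the kinase that act on opposite sides of the vitamin B6 cycle, and they are described here in RNA that an antibody pulled down from early erythroid progenitors of the mouse. Members were taken as every probe set annotated with Pdxp or Pdxk as its only gene symbol. This gave 3 probe sets, 2 for Pdxp and 1 for Pdxk, out of 21789 probe sets with a single symbol, so 2 of 19938 genes. The pair was chosen by its RBP minus IgG difference on these arrays, Pdxp having the largest of all genes and Pdxk being its partner in the pathway, so the values of both genes in that comparison are a description and carry no test.

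C57BL/6 fetal livers taken at E14.5 were the source of the cells. Mature blood cells, Sca-1+ multipotent cells and CD16/32+, CD41+ or CD34+ myeloid progenitors had been removed with magnetic beads, and c-Kit+ cells with low CD71 were then sorted. RNA was pulled down from the lysed cells with control rabbit IgG (2 arrays) or with an antibody specific for an RNA-binding protein, RBP (2 arrays), and each array was hybridised with 1 sample. No genotype or drug treatment is named in the labels, by which the groups differ in the antibody alone. The labels do not name the RBP, taken here to be ZFP36L2 from knowledge of the publication and not from the files, a protein that binds AU-rich elements. Whether replicate arrays stand for separate cell preparations is not stated in the labels. The p-values therefore reflect array-to-array spread that may be technical in part or in whole. No array of input RNA was used here.

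Vitamin B6 enters cells as pyridoxal, pyridoxine or pyridoxamine. Pyridoxal kinase, the product of Pdxk, phosphorylates them, which leads to pyridoxal 5'-phosphate (PLP), and pyridoxal phosphatase, the product of Pdxp, removes the phosphate again. PLP is the cofactor of many enzymes of amino acid metabolism and of 5-aminolevulinate synthase, the first enzyme of heme synthesis, which links the vitamin to red cell formation. Pyridoxal phosphatase is also known as chronophin, a protein phosphatase that activates the actin-severing protein cofilin.

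Pdxp was far higher in the RBP than in the IgG immunoprecipitates on both probe sets annotated with it. On probe set 10425158 the IgG arrays read 6.38 and 6.54 as deposited log2 levels and the RBP arrays 8.67 and 9.30. Both RBP arrays were high and the groups did not overlap, the smallest gap between an RBP and an IgG array being 4.37-fold and the largest 7.56-fold. The means were 6.46 ± 0.11 (SD, n = 2) and 8.98 ± 0.45 (SD, n = 2), a difference of 2.52 ± 0.24 (SE) or 5.75-fold.

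The second Pdxp probe set, 10581493, gave a like picture. Its log2 levels were 6.29 and 6.61 with IgG and 8.17 and 8.79 with RBP. The groups again did not overlap, with gaps from 2.95-fold to 5.67-fold. The means were 6.45 ± 0.23 (SD, n = 2) and 8.48 ± 0.44 (SD, n = 2), a difference of 2.03 ± 0.25 (SE) or 4.09-fold. Both probe sets are annotated with the same transcript and were read on the same arrays, so they are not independent samples. Whether the second one was designed to the Pdxp locus or to a near copy elsewhere is not settled by the files, so its values are those of a probe set annotated with Pdxp.

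The pair of probe sets varied together from array to array. RBP array 2 exceeded RBP array 1 by 0.63 on the first probe set and by 0.62 on the second (log2 levels), and IgG array 2 exceeded IgG array 1 by 0.16 and 0.32. A gap this wide between the RBP arrays was unusual, since 96.9% and 96.7% of single-symbol probe sets had a smaller one, and the median gap was 0.13. The log2 differences of the Pdxp probe sets lay 0.49 apart. Among the 777 genes with exactly 2 such probe sets the median distance was 0.27, and 80 of these genes, Pdxp included, were at least 2-fold higher without overlap on both.

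The kinase side of the cycle differed less, which the choice of Pdxp as the largest difference of all genes made certain. The Pdxk probe set, 10370497, had log2 levels of 9.31 and 9.28 with IgG and 9.86 and 9.67 with RBP. The IgG arrays were nearly equal, and both RBP arrays stood above them by 1.29-fold to 1.50-fold. The means were 9.29 ± 0.02 (SD, n = 2) and 9.77 ± 0.14 (SD, n = 2), a difference of 0.47 ± 0.15 (SE) or 1.39-fold. RBP array 1 was the higher of its pair for Pdxk, whereas RBP array 2 was the higher for Pdxp.

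Both genes thus had every RBP array above every IgG array, a separation in this direction that 37.4% of all genes showed. A difference of at least 2-fold without overlap, met by Pdxp and not by Pdxk, was found for 13.5% of all genes. As these counts come from the contrast that chose the pair, nothing is read from them. An exact two-sided permutation of 2 arrays against 2 cannot give a p below 0.333.

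**Figure D1:**
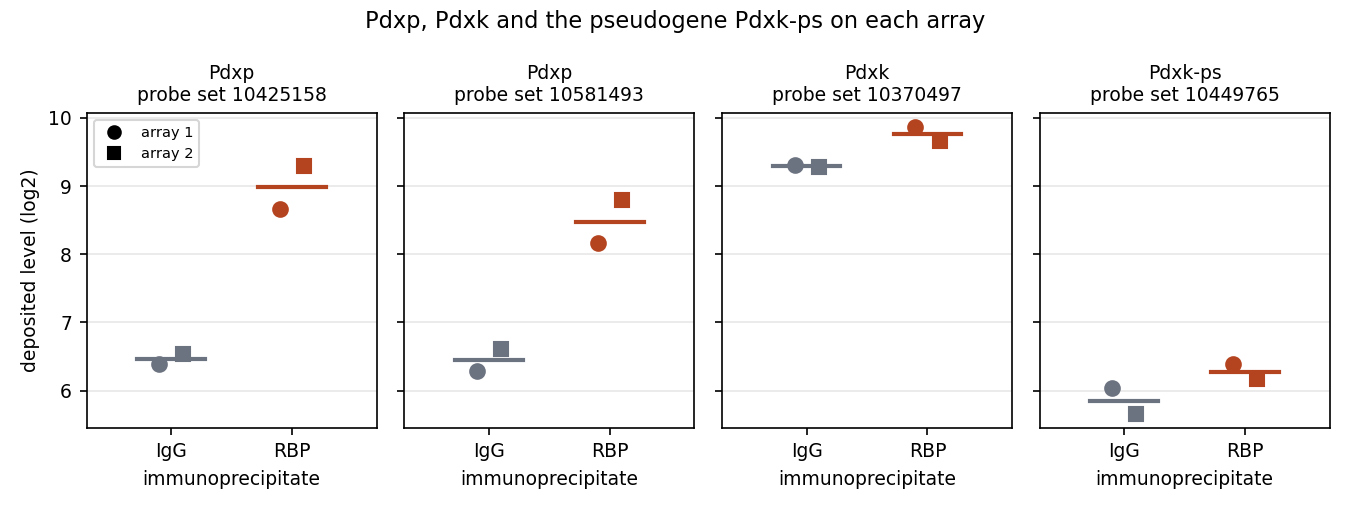
Deposited log2 level (vertical axis) on each IgG and RBP array for the 2 Pdxp probe sets, the Pdxk probe set and the Pdxk-ps pseudogene; circles are array 1, squares array 2 and bars group means, and levels are to be compared within a panel only. Both Pdxp panels show RBP arrays at 8.17 to 9.30 over IgG arrays at 6.29 to 6.61, while Pdxk moves from about 9.29 to 9.77.

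Pdxk has a transcribed pseudogene, Pdxk-ps, on chromosome 17, with a probe set of its own (10449765). Its log2 levels were 6.04 and 5.66 with IgG and 6.39 and 6.17 with RBP, a difference of 0.43 ± 0.19 (SE). The groups did not overlap, but the lower RBP array stood above the higher IgG array by only 1.09-fold. RNA of Pdxk and of its pseudogene may reach both probe sets, and how far it does was not tested.

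In the RefSeq gene table of GRCm38.p6, Pdxp spans chr15:78912160-78919517 on the plus strand and Pdxk spans chr10:78436747-78464948 on the minus strand. The table does not place the probe sets within exons or untranslated regions. A long noncoding RNA gene of the minus strand, Gm30368, covers 7314 bases of Pdxp, and no probe set was annotated with it alone. The microRNA gene Mir6908 lies within Pdxk and likewise had no probe set of its own.

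Genes beside the pair on the chromosome all differed less than Pdxp, which its choice as the largest difference of all genes made certain. Sh3bp1, which ends 108 bases before Pdxp begins, had log2 levels of 9.75 and 9.81 with IgG and 10.11 and 9.74 with RBP. Its groups overlapped, and it differed by 0.15 ± 0.18 (SE; limma, adjusted p = 0.544). On the far side, the galectin gene Lgals1 differed by 0.06 ± 0.19 (SE; limma, adjusted p = 0.810) and the nucleolar protein gene Nol12 by 0.17 ± 0.15 (SE; limma, adjusted p = 0.406). Gga1, which encodes a Golgi-sorting adaptor, was higher by 0.56 ± 0.15 (SE; limma, adjusted p = 0.0374), a call lost without either RBP array (limma, adjusted p = 0.289 and 0.179), with eBayes trend and robust options (0.0670) and with quantile normalization (0.819). With the trend on level removed, the differences of Gga1, Sh3bp1, Lgals1 and Nol12 all turned negative, and those of Sh3bp1 and Nol12 also did so with quantile normalization.

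Beside Pdxk, the ribosome biogenesis gene Rrp1 was higher by 0.68 ± 0.17 (SE; limma, adjusted p = 0.0295). This call was lost without IgG array 1 (limma, adjusted p = 0.0504), without RBP array 1 (0.234), without RBP array 2 (0.114) with quantile normalization (0.303) and with the trend on level removed (0.728). The cystatin B gene Cstb differed by -0.10 ± 0.19 (SE; limma, adjusted p = 0.693). On the other side the nearest measured genes, Ilvbl and Syde1, lay 109396 and 119554 bases away and differed by -0.15 and 0.15, neither passing limma's test (adjusted p = 0.575 and 0.481). The signs of Cstb and Ilvbl turned with centring on the chemosensory receptor genes.

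The size of a difference on these arrays went with the level of the gene, so the pair was set beside genes of like mean level. For 2540 other genes within 0.5 log2 units of the mean level of Pdxp, the median difference was 0.70. Their 95th percentile was 1.60 and their highest 2.30. Pdxp, at 2.52, was chosen as the largest difference of all genes, so none of them could exceed it. Of 1623 other genes near the level of Pdxk, the median difference was 0.74, and only 32.1% of them differed by less than Pdxk. Pdxk was therefore higher in the RBP immunoprecipitates on the deposited scale and at the same time below the middle of genes at its level. Both genes lay above the background level of 5.36, which is the 95th percentile of the mean levels of chemosensory receptor genes, a family these cells are not known to use.

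**Figure D2:**
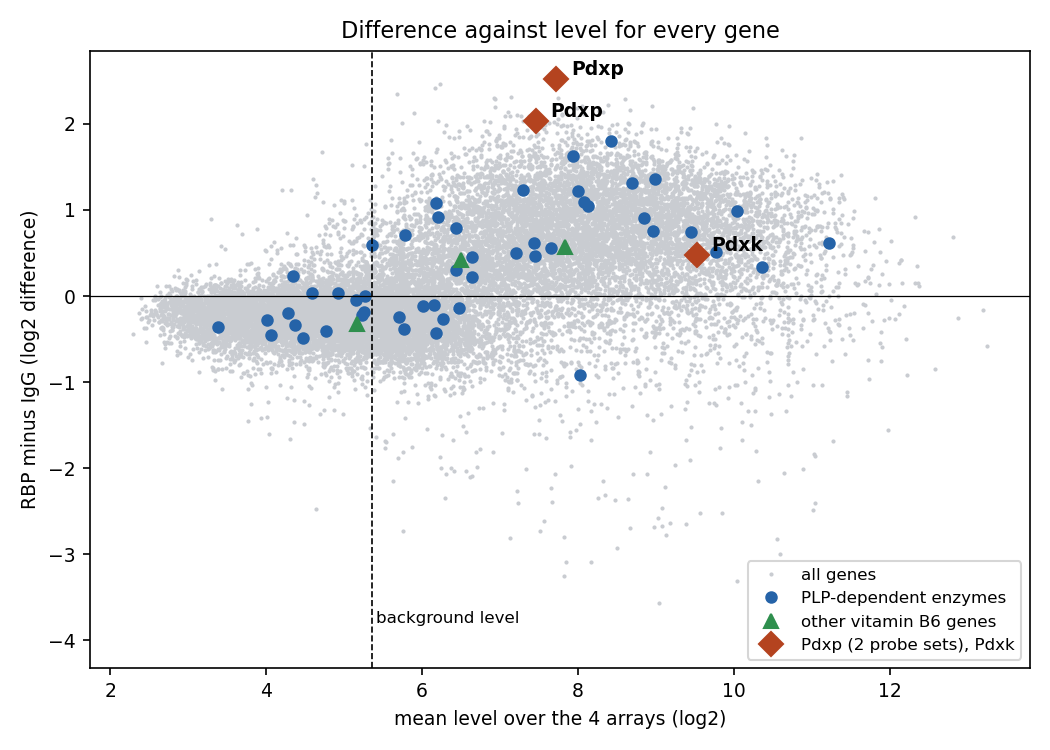
RBP minus IgG log2 difference (vertical axis) against the mean log2 level over 4 arrays (horizontal axis) for all genes (grey), PLP-dependent enzymes (blue), other vitamin B6 genes (green) and the member probe sets (red diamonds); the dashed line is the background level of 5.36. Both Pdxp probe sets lie at the upper edge of the cloud, at 2.52 and 2.03, and Pdxk lies within it at 0.47.

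The rank of Pdxp depended on how its probe sets were used. Represented by its brighter probe set, Pdxp stood first of 19938 genes. Among the 21789 single-symbol probe sets, the same probe set ranked 10 and the second 74, and Pdxk ranked 6630. With the mean over the probe sets of a gene, Pdxp differed by 2.28 and ranked 9, and without RBP array 2 it differed by 2.21 and ranked 18. With quantile normalization the difference was 2.30 and the rank 4. With the trend of the difference on level removed it was 1.88 and the rank 11.

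The direction of Pdxk depended on the processing. Its difference was 0.79 with centring on the chemosensory genes, -0.0014 with quantile normalization and -0.17 with the trend on level removed. Leaving out any 1 array kept it between 0.38 and 0.57. Across the same settings the brighter Pdxp probe set ran from 1.88 to 2.84 and the second from 1.43 to 2.35. Pdxp was chosen as the largest difference of all genes, so nothing is read from its keeping its sign where Pdxk did not.

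**Figure D3:**
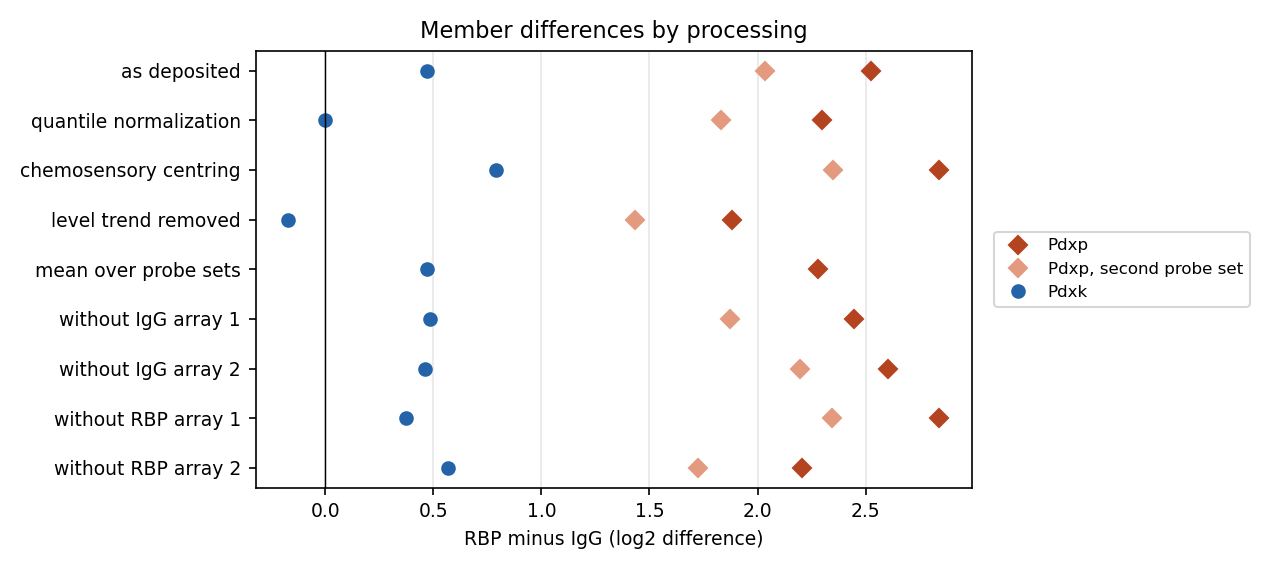
RBP minus IgG log2 difference (horizontal axis) of both Pdxp probe sets and of Pdxk under each processing that can move it (rows), with no error bars; the row for the mean over probe sets has 1 point for Pdxp. Pdxp stays between 1.43 and 2.84 in every row, and Pdxk falls to -0.0014 and -0.17 in 2 of them.

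The genes whose pattern over the 4 arrays was most like that of Pdxp were Med31, a subunit of the Mediator complex, Tjp1, a tight junction scaffold, Mlh3, a mismatch repair gene, Insig2, a sterol sensor of the endoplasmic reticulum, and Klhl12, an adaptor of a ubiquitin ligase. Likeness was the root mean square distance between profiles, each centred on its own mean, and ran from 0.13 for Med31 to 0.21 for Klhl12. Only 4 of 12087 candidate genes lay within 0.2 of Pdxp. Like Pdxp, Med31 was highest on RBP array 2, and it differed by 2.31. For Pdxk 2478 of the candidates (20.5%) lay within 0.2, the nearest being the fatty acid oxidation gene Acadvl at 0.0089 and the lipid kinase gene Pi4kb at 0.011, followed by Kif1c, Ints5 and Trappc9. These distances use the contrast that chose the pair and are a description.

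The 3 other genes of vitamin B6 handling analysed here gave no call. Plpbp, which encodes a PLP-binding protein that keeps the cofactor balanced, had log2 levels of 7.33 and 7.77 with IgG and 7.92 and 8.32 with RBP. The groups did not overlap, and it differed by 0.57 ± 0.22 (SE; limma, adjusted p = 0.103). Alpl, the tissue-nonspecific alkaline phosphatase that removes phosphate from PLP outside cells, had 6.41 and 6.18 with IgG and 6.98 and 6.46 with RBP, differing by 0.42 ± 0.22 (SE; limma, adjusted p = 0.185). The aldehyde oxidase gene Aox1, whose product can oxidise pyridoxal, lay at or below background and differed by -0.32 ± 0.14 (SE; limma, adjusted p = 0.138). Of these 3 genes 0 passed limma's test, where 23.8% of all genes were called higher and 6.54% lower, and 1 of them had an unadjusted p under 0.05. Plpbp passed with centring on the chemosensory genes (0.89; limma, adjusted p = 0.0307), with the replicate number as a block (adjusted p = 0.0212) and without IgG array 2 (0.79; adjusted p = 0.0440), and its difference was -0.09 with the trend on level removed. Alpl passed with centring on the chemosensory genes alone (0.74; limma, adjusted p = 0.0385), and the sign of Aox1 turned with quantile normalization (0.014).

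Enzymes that use PLP were next, as the cofactor is what Pdxk makes and Pdxp removes. Of 49 measured, 18 were higher, 1 was lower and 30 did not pass limma's test, beside 23.8% higher and 6.54% lower over all genes. Their median difference was 0.33, against -0.02 for all genes. The calls followed the level, with 17 of the 34 enzymes above background called higher and 1 of the 15 at or below it, and 36.5% of all genes above background were higher. Nothing particular to the list is read from these shares.

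The glycogen phosphorylase gene Pygb, whose product holds PLP at its active site, had the largest difference among them. Its log2 levels were 7.51 and 7.53 with IgG and 9.45 and 9.21 with RBP. The groups were far apart, and it was higher by 1.81 ± 0.16 (SE; limma, adjusted p = 0.00558). The liver form Pygl was higher by 1.22 ± 0.28 (SE; limma, adjusted p = 0.0244), with its RBP arrays at 8.98 and 8.25. Sepsecs, which makes selenocysteine on its transfer RNA, had 7.09 and 7.15 with IgG and 8.72 and 8.79 with RBP and was higher by 1.63 ± 0.14 (SE; limma, adjusted p = 0.00558).

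Both arms of sphingoid base metabolism held a higher enzyme. Sptlc2, a subunit of the serine palmitoyltransferase that begins sphingolipid synthesis, was higher by 1.32 ± 0.14 (SE; limma, adjusted p = 0.00558). Sgpl1, the lyase that degrades sphingosine 1-phosphate, was higher by 1.24 ± 0.26 (SE; limma, adjusted p = 0.0192). The cytosolic aspartate aminotransferase gene Got1 was higher by 1.36 ± 0.22 (SE; limma, adjusted p = 0.00919), and the mitochondrial one, Got2, by 0.61 ± 0.17 (SE; limma, adjusted p = 0.0444). The difference between Got1 and Got2 was not tested.

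Among the enzymes closest to heme, Alas1, the housekeeping 5-aminolevulinate synthase, and Alas2, the erythroid form, differed in outcome. Alas1 had log2 levels of 7.95 and 7.27 with IgG and 8.78 and 8.53 with RBP and was higher by 1.05 ± 0.25 (SE; limma, adjusted p = 0.0293). Alas2 had 5.32 and 5.22 with IgG and 5.51 and 5.03 with RBP, at or below background on average, with overlapping groups, and differed by 0.0024 ± 0.20 (SE; limma, adjusted p = 0.993). The difference between the 2 genes was not tested, and the sign of Alas2 turned negative without IgG array 2 and without RBP array 1.

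Serine and glycine exchange was represented by Shmt1, the cytosolic serine hydroxymethyltransferase, which was higher by 1.09 ± 0.15 (SE; limma, adjusted p = 0.00710). Shmt2, its mitochondrial counterpart, differed by 0.33 ± 0.21 with overlapping groups (SE; limma, adjusted p = 0.270), and turned to -0.18 with the trend on level removed. Odc1, the ornithine decarboxylase that begins polyamine synthesis, was higher by 0.74 ± 0.14 (SE; limma, adjusted p = 0.0148) on its brighter probe set. On the other it was higher by 1.36 ± 0.17 (SE; limma, adjusted p = 0.00638 over single-symbol probe sets). Which locus each was designed to was not settled, and the lost calls of Odc1 given below are those of the brighter one. Cbs, which begins transsulfuration, differed by -0.27 ± 0.20 (SE; limma, adjusted p = 0.345), passed as lower without IgG array 2 (-0.52; limma, adjusted p = 0.0404) and turned to 0.05 with centring on the chemosensory genes. Phykpl, the phosphohydroxylysine lyase, was the enzyme called lower, by -0.91 ± 0.24 (SE; limma, adjusted p = 0.0360). The other 8 enzymes called higher differed by 0.50 to 1.08.

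Many of these calls were lost when an array was left out or the scale was changed. Calls over all genes also fell in number without either RBP array, so losses in those settings are not read as particular to these enzymes. Without IgG array 1 or IgG array 2 the calls over all genes did not fall. The list had 7 higher enzymes with quantile normalization, when 2207 of all genes were higher against 4741 as deposited. With the trend on level removed it had 5, when 1122 of all genes were higher, and 1 enzyme remained lower. Without RBP array 1 the calls of Alas1, Shmt1, Odc1, Got2, Sgpl1, Pygl and Phykpl were lost (limma, adjusted p from 0.0550 to 0.216), and without RBP array 2 those of Alas1, Odc1 and Got2 (0.0750 to 0.302). Got2 was also lost without IgG array 1 (limma, adjusted p = 0.0819), and Sgpl1, Pygl and Phykpl without IgG array 2 (0.0509 to 0.0829). With quantile normalization Alas1, Shmt1, Odc1, Got1, Got2, Sgpl1 and Pygl did not pass (limma, adjusted p from 0.0536 to 0.325), and with the trend on level removed these and Sptlc2 did not (0.0518 to 0.747). Phykpl did not pass with centring on the chemosensory genes (limma, adjusted p = 0.122). Pygb and Sepsecs passed in every setting tried.

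**Figure D4:**
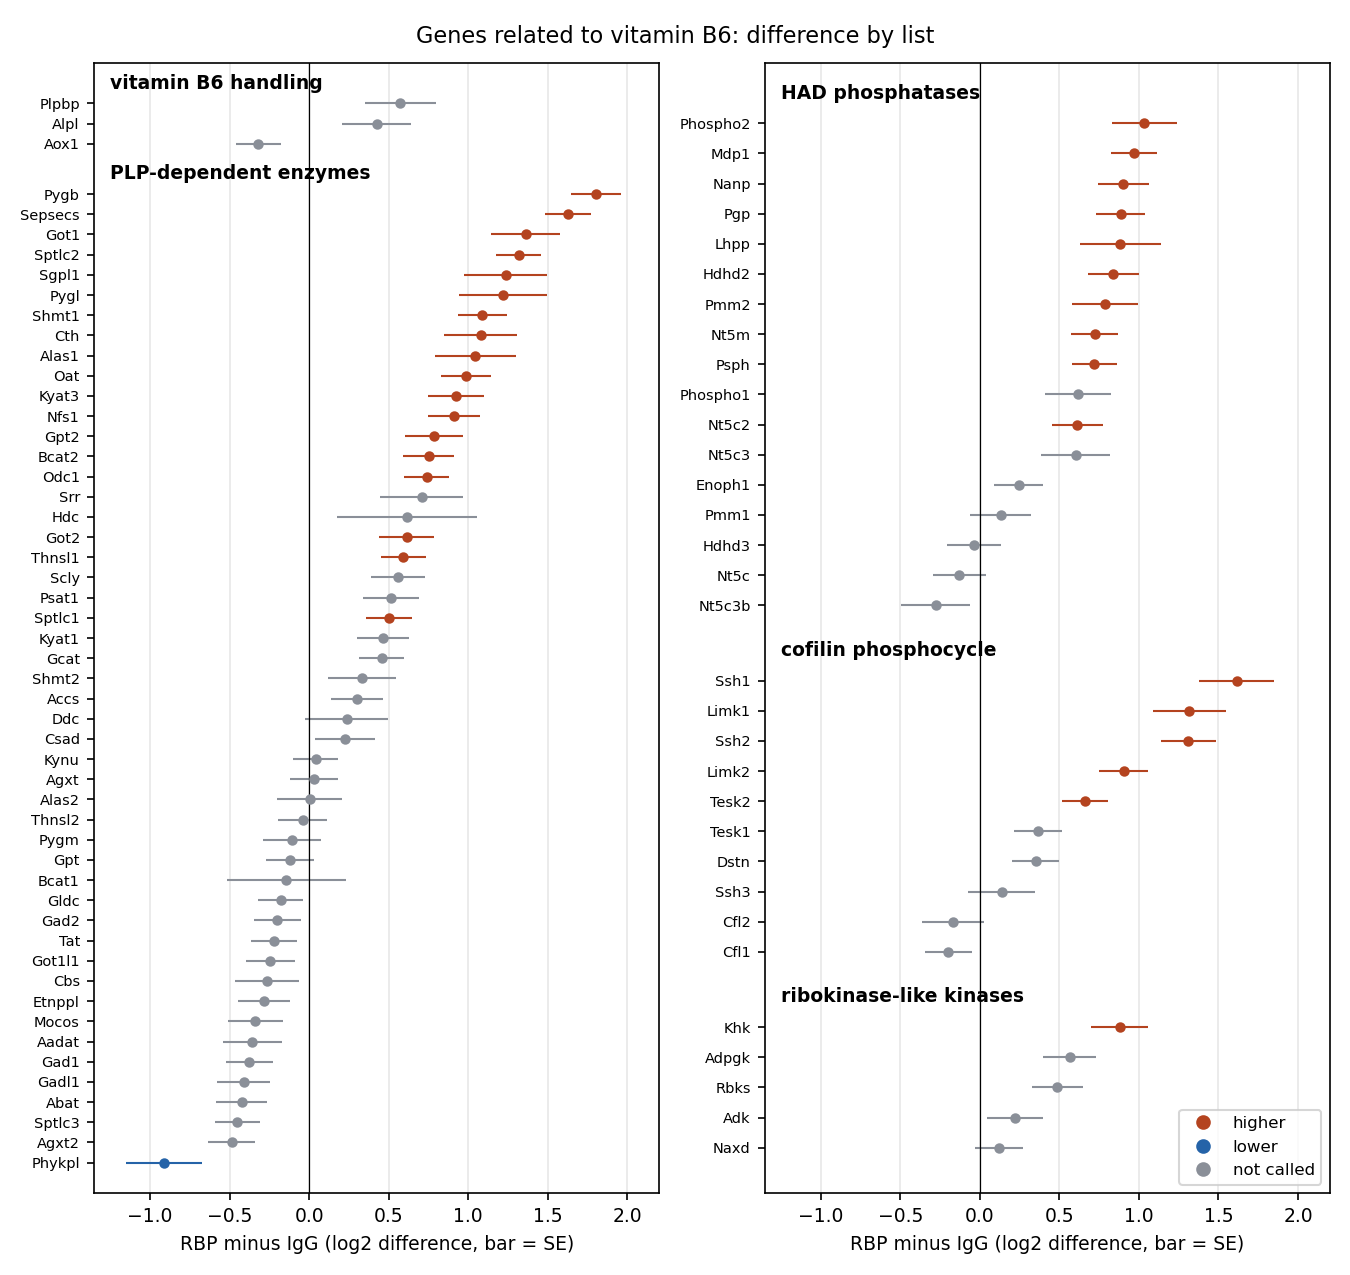
RBP minus IgG log2 difference (horizontal axis) with its SE (bars) for each measured gene of the 5 lists, coloured by limma's call at an adjusted p under 0.05; Pdxp and Pdxk are left out. Higher calls number 18 of 49 PLP-dependent enzymes, 10 of 17 HAD phosphatases, 5 of 10 cofilin genes and 1 of 5 ribokinase-like kinases, and Phykpl is the one lower call.

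Pdxp belongs to the haloacid dehalogenase (HAD) superfamily, which includes many phosphatases that act on small molecules. The list called HAD phosphatases here also holds the phosphomannomutases Pmm1 and Pmm2. Of its 17 enzymes measured, all above background, 10 were higher and 7 did not pass limma's test. Of all genes above background 36.5% were higher. The median difference of the list was 0.72, against 0.40 for all genes above background. Phospho2, an enzyme reported to act on PLP, had log2 levels of 6.53 and 6.03 with IgG and 7.33 and 7.30 with RBP, and was higher by 1.03 ± 0.20 (SE; limma, adjusted p = 0.0158). Mdp1, a magnesium-dependent phosphatase, was higher by 0.97 ± 0.14 (SE; limma, adjusted p = 0.00785) and Nanp, which completes sialic acid synthesis, by 0.90 ± 0.16 (SE; limma, adjusted p = 0.0122). The other 7 ran from 0.61 to 0.89. Pdxp, at 2.52, was chosen as the largest difference of all genes, so nothing is read from its distance to this list. Without RBP array 1, and likewise without RBP array 2, every call of this list was lost. Phospho2, Mdp1 and Nanp still differed by 0.90 to 1.05 in these settings. Calls over all genes fell in number as well but were not all lost. With quantile normalization 2 were higher, when 2207 of all genes were against 4741 as deposited. Phospho2, at a nearly equal difference of 1.01, then just missed the threshold (limma, adjusted p = 0.0532). With the trend on level removed 1 was higher and 2 were lower, when 1122 of all genes were higher and 1014 lower. Phospho2 and Nanp then did not pass (limma, adjusted p = 0.0986 and 0.0587).

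Chronophin shares its work on cofilin with the slingshot phosphatases and opposes the LIM and TES kinases. Of 10 genes of this cycle, all above background, 5 were higher and 5 did not pass limma's test, with a median of 0.51, where 36.5% of all genes above background were higher with a median of 0.40. The slingshot gene Ssh1 had log2 levels of 7.44 and 6.80 with IgG and 8.75 and 8.72 with RBP and was higher by 1.61 ± 0.24 (SE; limma, adjusted p = 0.00759). Ssh2 was higher by 1.31 ± 0.17 (SE; limma, adjusted p = 0.00631) on its brighter probe set and by 1.97 ± 0.26 on the other. The kinase gene Limk1, whose product opposes the slingshot phosphatases, was also higher, by 1.32 ± 0.23 (SE; limma, adjusted p = 0.0112). Of 12840 genes above background 4682 were higher and 841 lower, so nothing is read from this shared direction. The cofilin family substrates did not pass, Cfl1 differing by -0.20, Cfl2 by -0.17 and Dstn by 0.35. Without RBP array 1 Limk1 differed by 1.03 and lost its call. Fewer genes were called higher without either RBP array, in this list as over all genes. With the trend on level removed the list had 0 higher genes (4 at an unadjusted p under 0.05), when 1122 of all genes were higher. Limma's adjusted p for Ssh1, Ssh2 and Limk1 then ran from 0.0597 to 0.101.

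Pdxk belongs to the ribokinase-like family, of which 5 others were measured. They are called ribokinase-like kinases here, although Naxd encodes a dehydratase. Khk, the fructose kinase, had log2 levels of 7.06 and 6.69 with IgG and 7.74 and 7.77 with RBP and was higher by 0.88 ± 0.18 (SE; limma, adjusted p = 0.0170). The other 4, Rbks, Adk, Adpgk and Naxd, differed by 0.12 to 0.56 and did not pass (limma, adjusted p from 0.0506 to 0.556). All 5 genes were above background, with differences above 0 and a median of 0.49. Over all genes above background the median was 0.40 and 36.5% were higher, so nothing is read from how near these values are to the 0.47 of Pdxk. Khk lost its call without RBP array 1 (limma, adjusted p = 0.100), without RBP array 2 (0.102), with quantile normalization (0.108) and with the trend on level removed (0.319).

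Marker genes bear on which cells the RNA came from. All 7 erythroid progenitor markers, Kit, Gata1, Tfrc, Epor, Klf1, Tal1 and Zfpm1, were above background and 4 were higher, where 36.5% of all genes above background were, with a summed linear level of 6629 to 8020 with IgG and 10745 to 12349 with RBP. Of 6 hepatocyte markers 3 (Afp, Ttr and Apob) were at or below background and 0 were called by limma (1 had an unadjusted p under 0.05), with sums of 347 to 529 and 327 to 509. Of 7 macrophage markers 3 (Adgre1, C1qa and C1qc) were at or below background and Cd68 was lower, by -1.59. Csf1r (1.12) and Adgre1 (0.58) stood higher without overlap and did not pass limma's test (adjusted p = 0.117 and 0.132). C1qa (-0.33) and C1qc (-0.28) stood lower without overlap and did not pass limma's test (adjusted p = 0.162 and 0.191). Of all 19938 genes, 7464 stood higher and 7222 lower without overlap. Sums of these markers were 663 to 844 and 565 to 999. Of 4 megakaryocyte markers Pf4 was at or below background and Gp9 was higher, with sums of 400 to 547 and 576 to 588. Alb read 7.58 and 5.70 on IgG arrays 1 and 2, and 7.77 and 6.27 on RBP arrays 1 and 2. Afp, Ttr, Apoa1, Apob, Adgre1, Csf1r, Lyz2 and C1qa were likewise higher on array 1 of both groups. Apoa2, Cd68 and C1qc were higher on array 2 of both groups, and C1qb was mixed. Whether same-numbered arrays share a cell preparation was not tested. The part of other cells in the results for vitamin B6 genes was not tested. As the groups differ by the labels in the antibody alone, marker differences between them are not read as differences in cells. Without input RNA, the amount of a marker RNA in the lysate and its recovery by an antibody cannot be told apart.

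Over whole arrays the groups differed too. Array medians were 5.85 and 5.93 with IgG and 5.57 and 5.62 with RBP, and the spread between quartiles was wider with RBP. A wider scale on the RBP arrays and greater recovery of a given mRNA cannot be told apart in this design.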

How the data were processed

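RNA from 2 IgG and 2 RBP immunoprecipitates was measured on Affymetrix whole-transcript arrays. The authors' deposited values, 1 log2 level for each probe set and array, came from RMA in affy, per the submitters' processing notes. Versions and filters: not given in the sources used here. Scanner files were not used. The log2 scale was read from the range of the values. No array duplicated another.

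Probe sets were named through the platform annotation, with 21789 of 35556 carrying 1 symbol, 1621 several and 12146 none there. Of the first, 21698 matched the RefSeq table of GRCm38.p6 by Entrez identifier, which changed 0 symbols and was used for names and for gene positions. A gene was represented by its probe set with the highest mean. Limma 3.58.1 in R 4.3.3 (lmFit and eBayes, RBP minus IgG, two-sided, Benjamini-Hochberg over 19938 genes, threshold 0.05) had 2 residual and 3.76 prior degrees of freedom and was tested on simulated data. The number of arrays limits the precision, with a median SE of 0.17.

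The members and the 5 gene lists were chosen with earlier results of these data known. Named genes were the members, all vitamin B6 genes, 8 preset PLP enzymes with up to 6 largest calls in each direction, 3 largest calls of each other list, 2 neighbours on each side of a member, and the 5 profiles most like each. The counts of calls, the differences of Pdxp and Pdxk, and those of the named list genes and neighbours were recomputed with quantile normalization, with arrays centred on 1246 chemosensory genes, with a filter at their 95th percentile, with the loess trend on level (span 0.3) removed, with the mean over probe sets, a replicate block, and eBayes with trend and robust options, and leaving out each array. Levels of Pdxk-ps, like profiles, markers and level windows were not recomputed. All columns of values were used.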

Additional observations from a re-analysis of the deposited data

How the results depend on the processing

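The Pdxp difference of 2.52 ran from 1.88 with the level trend removed to 2.84 over the 11 alternatives, and from 2.21 to 2.84 when 1 array was left out. The background filter, the replicate block and the eBayes options could not change it. Pdxp was chosen as the largest difference of all genes, so nothing is read from its keeping its sign. The Pdxk difference of 0.47 was 0.79 with centring on the chemosensory genes, -0.0014 with quantile normalization and -0.17 with the level trend removed, and 0.38 to 0.57 when 1 array was left out. Quantile normalization gave 2207 genes higher and 553 lower, with 7 PLP enzymes, 2 HAD phosphatases and 0 ribokinase-like kinases higher. With the level trend removed, 1122 genes were higher and 1014 lower, with 5 PLP enzymes, 1 HAD phosphatase, 0 cofilin genes and 0 ribokinase-like kinases higher and 2 HAD phosphatases lower. Centring on the chemosensory genes, where the median gene stood at 0.29 in place of -0.02, gave 7078 higher and 317 lower, with 2 vitamin B6 genes and 3 ribokinase-like kinases higher and 0 PLP enzymes lower. The background filter gave 2 ribokinase-like kinases higher, and eBayes with trend and robust options 3 PLP enzymes lower. The cause of these shifts was not tested. Where 0 ribokinase-like kinases or cofilin genes passed limma's test as higher, 1 (quantile normalization), 0 (level trend, ribokinase-like) and 4 (level trend, cofilin) had an unadjusted p under 0.05.

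With the replicate number as a block, 5885 genes were higher and 2199 lower, 1 vitamin B6 gene and 2 ribokinase-like kinases were higher and 2 PLP enzymes lower. The deviations of same-numbered arrays correlated at 0.26 across genes, but the labels give no pairing beyond the number.

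When 1 array was left out, a group of 1 array was taken to vary like the other group. All genes higher then ran from 1724 to 5153 and lower from 99 to 2905, PLP enzymes higher from 6 to 18 and lower from 0 to 4, HAD phosphatases higher from 0 to 10 and lower from 0 to 1, cofilin genes higher from 2 to 5, ribokinase-like kinases higher from 0 to 1 and vitamin B6 genes higher from 0 to 1.

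Of 350 values for 32 named genes, 270 kept direction and side of the threshold. Signs turned at Aox1 (0.014 with quantile normalization), at Plpbp (-0.089) and Shmt2 (-0.18) with the level trend removed, and at Cbs (0.050), Cstb (0.21) and Ilvbl (0.17) with chemosensory centring. Among neighbours, they also turned with the level trend removed at Gga1 (-0.15), Sh3bp1 (-0.45), Lgals1 (-0.23) and Nol12 (-0.43), with quantile normalization at Sh3bp1 (-0.27) and Nol12 (-0.14), and when 1 array was left out the range crossed 0 for Alas2 (-0.24 to 0.24), Cstb (-0.26 to 0.060), Ilvbl (-0.38 to 0.081), Lgals1 (-0.15 to 0.28) and Sh3bp1 (-0.039 to 0.33). Low signal limits Aox1 and Alas2, which lay at or below background.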
